A study of Mus musculus with 6 samples.

Results

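Among accessible regions that every animal's library detected in the dentate gyrus, 743 held a higher place in the score ranking of each EYFP library than in the ranking of any cFos library. They were selected on the authors' peak scores, out of 11837 regions called in all 6 ATAC-seq libraries and 70575 merged regions in the whole series. Each region took the highest score of a library's peaks within it. Regions were then ranked inside each library, and a region was kept when the lowest of its 3 EYFP ranks lay above the highest of its 3 cFos ranks. Ranks are given as a percent of the 11837 shared regions, so that 100% is the highest-scoring shared region of a library. The distance between the lowest EYFP and the highest cFos rank is called the gap. Because the ranks chose these regions, all values of the EYFP and cFos contrast below describe them and carry no test.

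The mice were adults 8 weeks old, and dentate gyrus was dissected after infection with adeno-associated virus (AAV). The virus carried EYFP, a fluorescent protein used as the control, in 3 animals (EYFP_OE), and cFos in 3 others (cFos_OE), with 1 library from each animal. The protocol text does not say whether cFos animals also carried EYFP, and none of the sources used here gives the vector's promoter, the time after infection or the share of infected cells. The strain label reads C57BL/6 in the first sample, with another final number in each later sample, and was not used to group them.

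ATAC-seq marks DNA that the transposase Tn5 can reach, which is mostly DNA free of nucleosomes at promoters, enhancers and insulators. The dentate gyrus consists largely of granule neurons, with interneurons and glia among them. cFos is an inducible subunit of AP-1, a dimeric transcription factor that neurons build from Fos and Jun proteins after activity and that binds many distal enhancers. In tissue, a weaker peak in fewer open cells and a weaker peak in each cell cannot be told apart. Coordinates are those of the mouse build mm9. An annotation of that build was not used here, so the regions are given by position, with no gene name or sequence, and the tissue's marker genes were not examined.

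The lists differed in length before ranking, from 24040 peaks in cFos replicate 2 to 44321 in EYFP replicate 2. Scores also differed in level. Over the 11837 shared regions the median score was 190.21, 301.68 and 216.9 in EYFP replicates 1 to 3 and 167.85, 146.58 and 220.77 in cFos replicates 1 to 3. EYFP replicate 2 stood above and cFos replicate 2 below the other libraries. Ranking gives every library the same scale and removes such a shift. Spearman correlations of the ranks across the shared regions were 0.809 to 0.852 among EYFP libraries, 0.745 to 0.808 among cFos libraries and 0.739 to 0.813 between groups, and the 4 lowest of the 15 all involved cFos replicate 2.

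The 743 regions were 6.28% of the shared regions. The opposite rule, every cFos rank above every EYFP rank, was met by 847 regions, or 7.16%. When 3 libraries drawn from both groups were set against the remaining 3, the number of regions with such separated ranks lay between 465 and 668 over the 18 possible choices, with a median of 546.5. The EYFP count was thus higher than in every mixed choice and lower than in the opposite direction. The closest mixed choices were EYFP replicates 2 and 3 with cFos replicate 1 (668 regions) and EYFP replicate 3 with cFos replicates 1 and 3 (662 regions). A region named below can therefore not be read as changed on its own.

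**Figure D1:**
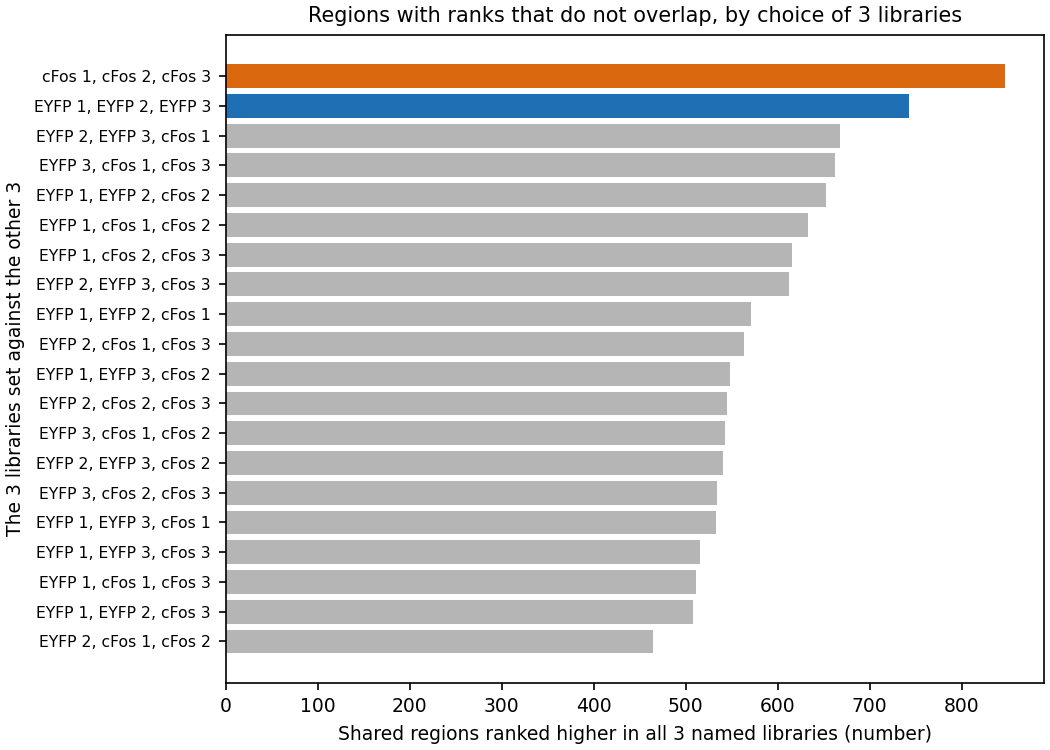
Number of shared regions (horizontal axis) whose ranks in 3 libraries all lie above those in the other 3, for each of the 20 choices of 3 libraries (vertical axis). The EYFP bar (blue) reaches 743 and the cFos bar (orange) 847, and the 18 mixed choices (grey) reach 465 to 668.

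At most of these regions the groups differed by a moderate shift in rank. Their median rank was 61.8%, 58.7% and 61.2% in EYFP replicates 1 to 3, and 33.3%, 35.0% and 36.4% in cFos replicates 1 to 3. The group means of a region differed by a median of 18.4 percentage points, from 0.377 to 55.7. Over all shared regions the median difference was 0.0732. Ranks of a member spread over a median range of 10.7 points among EYFP libraries and 12.2 points among cFos libraries, against 16.4 and 19.1 points over all shared regions. A narrow spread within groups is part of what the rule asks for.

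Most gaps were narrow. The median gap was 4.16% of the shared regions, and 326 members had a gap above 5%, 165 above 10%, 38 above 20% and 7 above 30%. In the opposite direction 209 regions had a gap above 10%, 44 above 20% and 10 above 30%, and the widest cFos gap was 59.5% against 38.4% for EYFP. Each library set the edge of the gap at a similar share of members. EYFP replicates 1 to 3 held the lowest EYFP rank in 225, 256 and 262 members, and cFos replicates 1 to 3 the highest cFos rank in 237, 236 and 270.

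**Figure D2:**
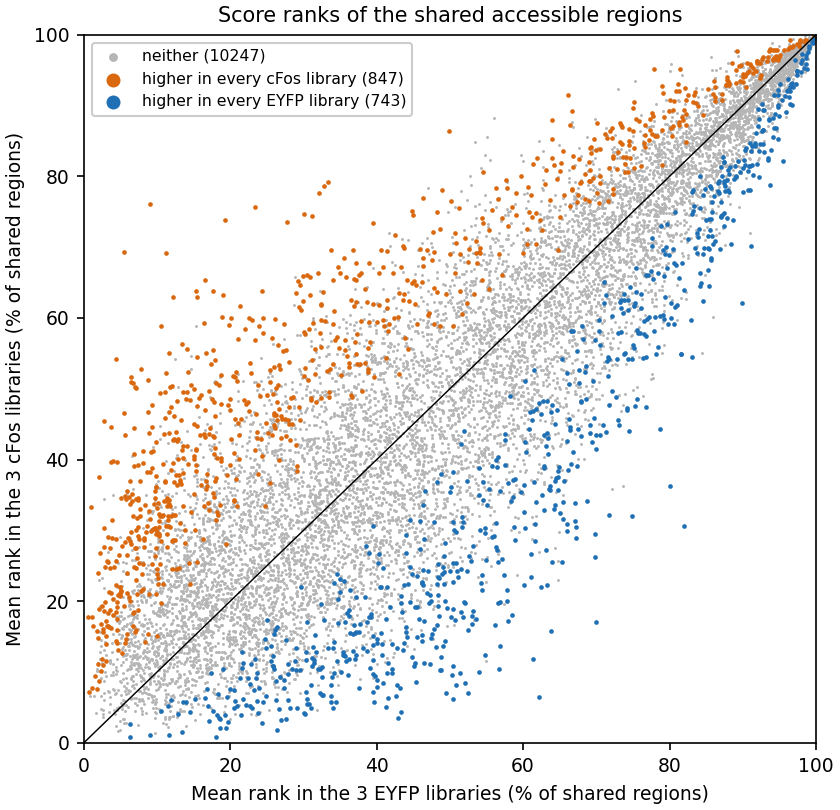
Mean rank in the 3 EYFP libraries (horizontal axis) against mean rank in the 3 cFos libraries (vertical axis), both as a percent of the 11837 shared regions, with 1 point per region. The 743 regions higher in every EYFP library (blue) lie below the diagonal and the 847 higher in every cFos library (orange) above it, and both bands narrow toward the top ranks.

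These regions came from the whole range of signal. By the mean rank over all 6 libraries, 135, 175, 145, 138 and 150 of them fell in the quintiles from lowest to highest, or 18.2%, 23.6%, 19.5%, 18.6% and 20.2%. Wide gaps were found mostly in the middle and lower part. Of the 38 members with a gap above 20%, 25 were in the second-lowest quintile, 9 in the middle one, 3 in the lowest, 1 in the second-highest and 0 in the highest. The median gap was 8.56% in the second-lowest quintile and 1.17% in the highest, where ranks of all libraries lie close together. At 163 members all 3 cFos ranks were within the lowest 20% of a library, which was 21.9% of members and 5.90% of all shared regions. At 159 members, or 21.4%, all 3 EYFP ranks were within the highest 20%, against 14.2% of all shared regions.

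Some members were close to not being called in cFos animals. At least 1 cFos score was under 60, where the lists begin at 50, in 133 members, or 17.9%, against 10.0% of all shared regions. The number was 57, 94 and 23 in cFos replicates 1 to 3, beside 474, 659 and 229 over all shared regions. Both were highest in the shortest list. At least 1 EYFP score was under 60 in only 1 member, beside 520 of all shared and 91 of the cFos-higher regions. The rule itself favours low cFos and high EYFP scores. Members with a cFos score under 60 lay near the lower limit of the cFos lists.

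The region with the widest gap lay on chromosome 14 from 15636139 to 15637462 (mm9) and was 1324 bp wide. It ranked at 49.9%, 49.2% and 55.0% in EYFP replicates 1 to 3, with scores of 189.95, 298.33 and 236.6. In cFos replicates 1 to 3 it ranked at 10.8%, 9.16% and 9.78%, with scores of 75.61, 65.63 and 90.3. The libraries of each group stood close together, and the groups were 38.4% apart. The called width also differed, from 1065 to 1324 bp in EYFP and from 270 to 532 bp in cFos libraries. Another shared region lay 29.0 kb away.

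The second, on chromosome 4 from 12726467 to 12727688, was the strongest in EYFP animals among the first 7. Its ranks of 83.2%, 82.1% and 80.7% in EYFP replicates 1 to 3 fell within the highest 20% of each library. In cFos replicates 1 to 3 they were 43.0%, 36.5% and 12.4%. The cFos animals differed among themselves here, with replicate 3 well below the others, while scores ran from 356.91 to 520.25 in EYFP and from 98.88 to 147.76 in cFos libraries.

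The third, on chromosome 15 from 54343856 to 54345140, had EYFP ranks of 56.2%, 53.4% and 60.6% and cFos ranks of 17.1%, 9.09% and 4.87% in replicates 1 to 3. Its peak was 656, 1095 and 1285 bp wide in EYFP and 404, 310 and 301 bp wide in cFos replicates 1 to 3. The fourth, on chromosome 12 from 65239873 to 65240677, ranked between 42.3% and 61.5% in EYFP and between 5.90% and 8.01% in cFos libraries. In both, every cFos library placed the region among its weakest shared peaks. The fourth was also the narrower of them, at 805 bp.

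The fifth region, on chromosome 10 from 12058851 to 12060171, was called as 2 peaks in cFos replicate 1 and as 1 peak in the other libraries. Its ranks were 48.2% to 57.5% in EYFP and 3.66% to 14.0% in cFos animals. The sixth, on chromosome 6 from 81718479 to 81719556, showed the widest spread among EYFP animals of the first 6, from 45.2% to 72.3%, over cFos ranks of 3.45% to 11.2%. The seventh, on chromosome 13 from 29526411 to 29527080, was the narrowest of the first 20, at 670 bp, with ranks of 48.9% to 55.7% and 14.2% to 17.8%. All 7 ranked below the highest 15% of the shared regions in every EYFP library.

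The remaining 13 of the first 20 had gaps between 23.9% and 29.8%. The highest EYFP levels among them were on chromosome 3 from 80952758 to 80954222, with a mean rank of 69.9 ± 15.7% in EYFP and 17.1 ± 8.83% in cFos libraries (SD, n = 3 each), and on chromosome 13 from 59174814 to 59175761, with 74.8 ± 6.96% and 32.0 ± 8.77%. Chromosome 18 held 4 of the 20, from 26081854 to 26082941, from 3807205 to 3808055, from 13316174 to 13317171 and from 54612054 to 54613018. Chromosome 6 held another from 64440497 to 64441194, with 61.3 ± 10.3% and 11.9 ± 9.39%, and chromosome 11 one from 31069133 to 31070097, with 48.8 ± 2.68% and 12.1 ± 8.02%. The lowest single rank belonged to the region on chromosome 3 from 130521320 to 130522186, at 0.0338% in cFos replicate 1 with a score of 50.07, beside 12.5% and 19.98% in the other cFos libraries. The rest were chr15:23349311-23350291, chr13:112660134-112661009, chr2:77701487-77702546 and chrX:126299656-126300523.

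The first 20 regions were 670 to 1465 bp wide, with a median of 973 bp against 1128 bp over all shared regions. The nearest shared region was a median of 93.3 kb away, against 48.6 kb over all shared regions. Of the 20, 0 were split into several peaks in an EYFP library and 2 in a cFos library, near the general shares of 4.74% and 8.43%. The ranks and scores that follow are those the gap was computed from. In 18 of the 20 every cFos rank was under 30%. Scores ran from 163.6 to 525.72 in EYFP libraries and from 50.07 to 188.4 in cFos libraries, and the geometric mean score was a median of 3.18-fold higher in EYFP libraries.

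**Figure D3:**
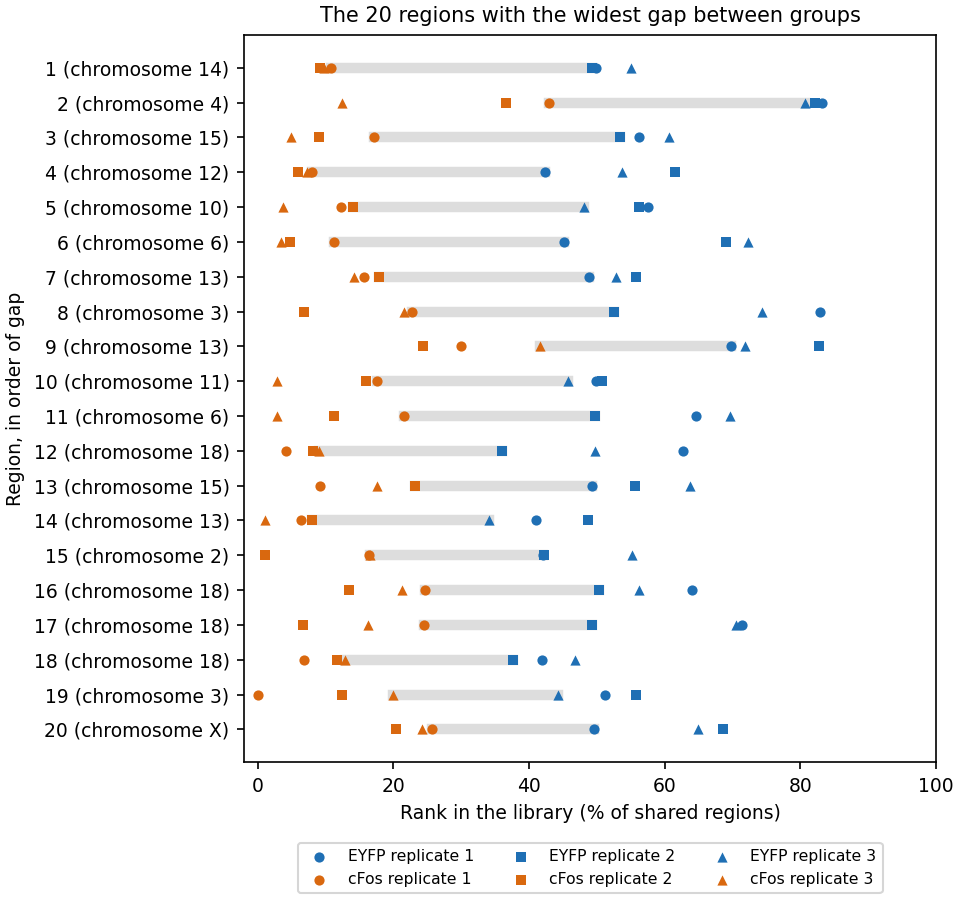
Rank of the 20 regions with the widest gap (vertical axis, in order of gap) in each library, as a percent of the shared regions (horizontal axis), with 1 symbol per library and a grey bar over the gap. EYFP ranks (blue) lie between 34.1% and 83.2% and cFos ranks (orange) between 0.0338% and 43.0%, with gaps of 23.9% to 38.4%.

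At the top of the ranking the members were set apart by very little. The member with the highest EYFP ranks was on chromosome 18 from 49914576 to 49916079, at 99.6%, 99.8% and 99.8% in EYFP and 99.6%, 99.1% and 99.4% in cFos replicates 1 to 3. Its scores were 985.11, 1378.18 and 1245.13 in EYFP and 845.65, 789.21 and 961.11 in cFos replicates 1 to 3. Only 2 rank places lay between the groups, so this strongly accessible region met the rule while being near the top in every animal. The next members by this order were chr6:122258264-122259452, chr1:43989845-43991512, chr3:32606959-32608475 and chr1:153274855-153276822, with gaps of 0.0929% to 0.270%. In all, 27 members were within the highest 10% of all 6 libraries, or 3.63%, against 5.25% of all shared regions.

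The edge of the rule was crossed without a visible step. Just inside it, after the chromosome 18 region, were chromosome 7 from 48887880 to 48889497 with a gap of 2 ranks and chromosome 2 from 49582267 to 49583688 with a gap of 2.5 ranks. Just outside, 4 regions had a gap of exactly 0, among them chr12:3109782-3110262, chr2:34626646-34628255 and chr8:4165571-4167184. The chromosome 12 region was no near miss, since it ranked equally, at 99.96%, in all 6 libraries. Its raw scores were lower in EYFP (2320.37 to 2619.05) than in cFos libraries (2696.88 to 2916.79). A gap of up to 1% was found for 141 members, and 314 regions missed the rule by less than 1%.

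Peaks at the members were wide in EYFP and narrow in cFos libraries. The median summed peak width in a member was 891, 1014 and 898 bp in EYFP replicates 1 to 3 and 596, 592 and 659 bp in cFos replicates 1 to 3. The same medians over all shared regions were 823, 994 and 855 bp and 659, 630 and 725 bp. Every EYFP median was thus above every cFos median in both sets, with members above the general median in each EYFP library and below it in each cFos library. The mean width was a median of 1.43-fold larger in EYFP libraries at members and 1.27-fold larger over all shared regions. At the 847 regions that ranked higher in cFos it was still 1.14-fold larger in EYFP libraries. In 437 members, or 58.8%, every EYFP library called more bases than any cFos library, beside 34.2% of all shared regions and 18.9% of cFos-higher regions. The reverse, every cFos library wider, held for 0.321% of shared regions and 0 members. Width and score come from the same peaks and are not independent of each other.

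**Figure D4:**
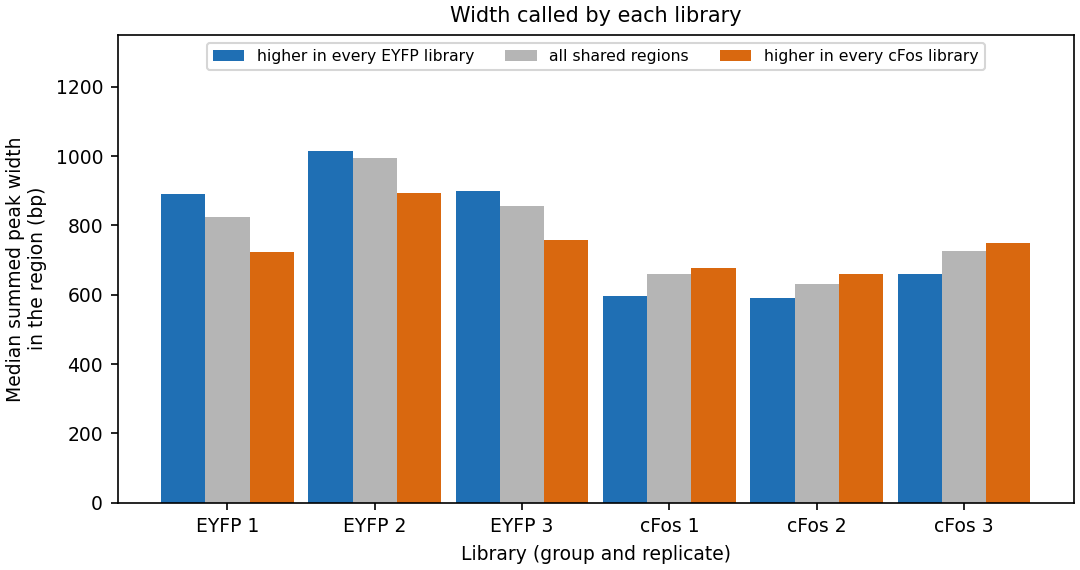
Median summed width in base pairs of the peaks a library called within a region (vertical axis), by library (horizontal axis), for regions higher in every EYFP library (blue), all shared regions (grey) and regions higher in every cFos library (orange). Blue bars exceed grey ones in the 3 EYFP libraries (891, 1014 and 898 against 823, 994 and 855 bp) and fall below them in the 3 cFos libraries.

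The merged extent of the members was ordinary. Their median width was 1141 bp, against 1128 bp over all shared regions and 1059 bp for the cFos-higher regions. Broad regions of 2 kb or more were 47 of the members, or 6.33%, against 8.95% of all shared regions and 12.04% of the cFos-higher regions. The widest member, on chromosome 17 from 3079181 to 3085156, spanned 5976 bp and ranked at 67.4% to 83.7% in EYFP and 46.4% to 59.3% in cFos libraries. The next were 4099 bp on chromosome 18 from 86562198 to 86566296 and 3886 bp on chromosome 2 from 152221347 to 152225232. The chromosome 18 region had a gap of 0.600%, set by cFos replicate 3 at 42.5%, while cFos replicates 1 and 2 ranked it at 4.09% and 28.1%.

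Some members were called in pieces, mostly in cFos libraries. A member was called as 2 or more peaks in at least 1 cFos library in 93 cases, or 12.5%, and in at least 1 EYFP library in 20 cases, or 2.69%. Over all shared regions the shares were 8.43% and 4.74%, and at the cFos-higher regions 4.37% and 4.60%. By library, 45, 28 and 61 members were split in cFos replicates 1 to 3, or 6.06%, 3.77% and 8.21%, and 11, 5 and 9 in EYFP replicates 1 to 3, or 1.48%, 0.673% and 1.21%. Splitting was commoner in cFos lists in general, at 4.18%, 3.03% and 4.55% of all shared regions in cFos and 2.23%, 1.44% and 2.48% in EYFP replicates 1 to 3. The members' share was above the general one in each cFos library and below it in each EYFP library. Splitting and score come from the same peaks, so this direction is not independent of the rule.

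On the raw scores the picture depended strongly on the general level of each list. Every EYFP score lay above every cFos score in 603 of the 743 members, or 81.2%, and the geometric mean score was a median of 1.93-fold higher in EYFP libraries. Over all shared regions the median fold was 1.27, and raw scores were separated toward EYFP in 1788 regions, or 15.1%, and toward cFos in 101, or 0.853%. The members make up 33.7% of those 1788 regions. Among the cFos-higher regions 87 of 847 also had separated raw scores. When a region was instead placed among all peaks of its library, and not among the shared regions only, 1561 regions were higher in every EYFP and 240 in every cFos library. The near balance of both directions, 743 against 847, therefore belongs to the ranking within shared regions, whereas 666 of the 743 members were also among the 1561.

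The 743 regions were spread over all 20 chromosomes analysed. Their share of a chromosome's shared regions was highest on chromosome 15, at 49 of 496 or 9.88%, and lowest on chromosome 16, at 12 of 360 or 3.33%. Chromosome 17 (30 of 373, 8.04%) and chromosome 14 (41 of 523, 7.84%) followed at the upper end, and chromosome 9 (17 of 494, 3.44%) and chromosome 11 (27 of 565, 4.78%) at the lower. The cFos-higher regions had other shares on some of these. Chromosome 17 held 11 of them, or 2.95% of its shared regions, and chromosome 16 held 31, or 8.61%. Chromosome X held 27 members, or 5.90% of its shared regions. Regions on a chromosome are not independent, and these shares were not tested.

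**Figure D5:**
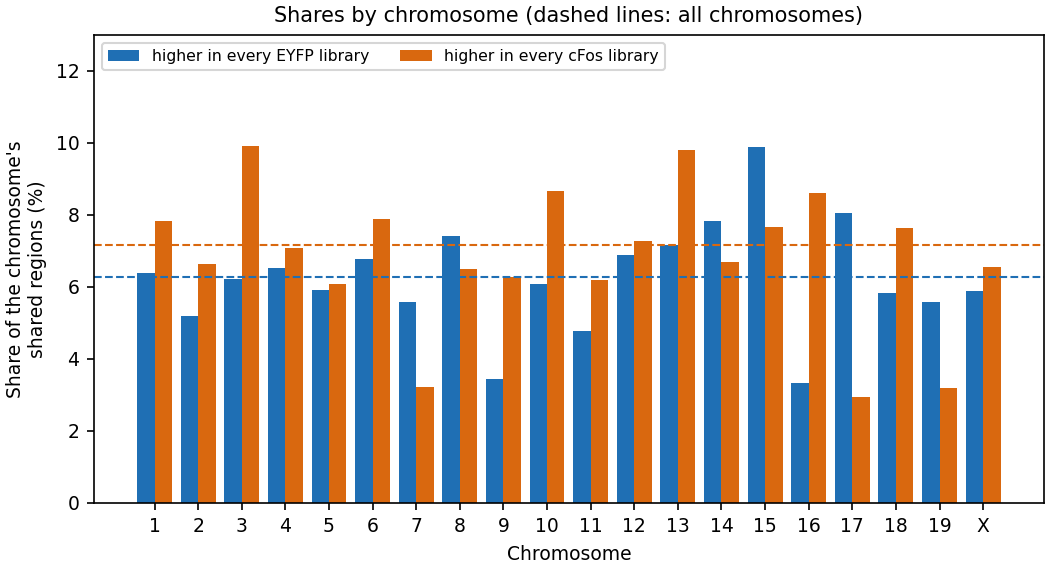
Share of each chromosome's shared regions, in percent (vertical axis), that ranked higher in every EYFP library (blue) or in every cFos library (orange), with dashed lines at 6.28% and 7.16% for all chromosomes. The EYFP share is highest on chromosome 15 (9.88%) and lowest on chromosome 16 (3.33%), and chromosomes 16 and 17 lean in opposite directions.

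The ranks of all shared regions on these chromosomes leaned the same way on some of them, without full separation of the groups. All shared regions include the members and the cFos-higher regions, so such a lean is partly built in. On chromosome 15, with the highest share, the median rank of all shared regions was 45.8%, 45.8% and 46.6% in EYFP and 43.0%, 43.5% and 45.9% in cFos replicates 1 to 3. Only cFos replicate 3 reached above EYFP libraries there, namely replicates 1 and 2. The difference between the lowest EYFP and the highest cFos median was -0.139 points. On chromosome 16, with the lowest share, it was 48.5%, 49.2% and 51.2% in EYFP replicates 1 to 3 and 51.1%, 51.0% and 53.7% in cFos replicates 1 to 3. On chromosome 17 it was 50.6%, 52.4% and 56.2% in EYFP and 53.6%, 47.5% and 56.8% in cFos replicates 1 to 3. The lean on chromosome 16 was toward cFos, at a difference of -0.127 points between the lowest cFos and the highest EYFP median, while on chromosome 17 the groups overlapped widely. Chromosome 5 was the 1 chromosome of 20 on which every EYFP median, from 50.6% to 51.4%, was above every cFos median, from 47.4% to 49.2%, and on 0 chromosomes was every cFos median higher.

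By median distance, members lay farther from other shared regions than shared regions in general did. The nearest shared region was a median of 59.6 kb away, against 48.6 kb over all shared regions and 45.4 kb at cFos-higher regions. Within 10 kb, 57 members had another shared region, or 7.67%, beside 10.8% of all shared regions and 15.8% of cFos-higher regions. The nearest other member was a median of 881 kb from a member and 1011 kb from a shared region in general. At short range this was not so. Within 10 kb, 0 members had another member, beside 0.498% of all shared regions. Within 100 kb, 61 members, or 8.21%, had one, beside 8.39% of all shared regions. Regions called in all EYFP and no cFos libraries were within 100 kb of 13.2% of members and 12.01% of all shared regions. The share was 15.0% for cFos-higher regions. All shared regions with another region of the EYFP-higher set within 50 kb numbered 479, of which 25 were members and 36 cFos-higher. Their EYFP minus cFos difference in mean rank had a median of -0.572 points, against 0.0732 over all shared regions, and 47.8% of them were higher in EYFP by mean rank, against 50.5%.

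The closest pair of members lay 12065 bp apart on chromosome 4, from 116792789 to 116794171 and from 116806237 to 116807049, with a further member from 116828074 to 116829135. The window of 1 Mb with most members was on chromosome 1, where 5 lay between 58448980 and 59177655. They were at 58448980 to 58450904, 58501390 to 58503022, 58642099 to 58643794, 59029640 to 59031145 and 59176265 to 59177655. All 5 were strong, with mean EYFP ranks of 80.8% to 95.5%, and their gaps were 0.253% to 7.52%. The last had ranks of 96.4%, 93.5% and 96.7% in EYFP and 81.9%, 85.9% and 78.4% in cFos replicates 1 to 3. The same window held 5 other shared regions, of which 1, from 59219347 to 59220373, ranked higher in every cFos library, at 12.2% to 42.6% against 1.59% to 6.44%.

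Opposite directions were found side by side at 8 members, each within 10 kb of a region that ranked higher in every cFos library, or 1.08% of members against 1.30% of all shared regions. These pairs were singled out after their values were seen. The nearest pair lay 693 bp apart on chromosome 6, with the member from 18631859 to 18632594 and the cFos-higher region from 18630571 to 18631165. Both were weak, with ranks of at most 23.8% and 26.4% in any library. The pair on chromosome 4, 1577 bp apart, was stronger. Its member, from 28225686 to 28227082, ranked at 89.4%, 82.4% and 77.0% in EYFP and 73.0%, 74.2% and 31.8% in cFos replicates 1 to 3. Its neighbour, from 28228660 to 28229639, ranked at 27.2%, 34.2% and 35.1% in EYFP and 59.4%, 88.1% and 85.4% in cFos replicates 1 to 3. Within this stretch the member was the stronger of the pair in every EYFP library and the weaker in cFos replicates 2 and 3. Another pair, 1220 bp apart on chromosome 5, had its member from 45689630 to 45690903 at 55.7% to 72.2% in EYFP and 9.12% to 54.1% in cFos libraries, and its neighbour from 45692124 to 45692964 at 6.96% to 21.6% and 27.3% to 51.9%.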

How the data were processed

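The authors deposited 1 peak list per library, in which each peak has coordinates, a MACS peak number and a score. The submitters' processing notes name Bowtie2 and mm9. None of the sources used here gives the caller's version, its threshold, a control, the filters on duplicate and mitochondrial reads or a Tn5 shift. The deposited score ran from 50 to 3100 in every list, what it measures is not stated, and it was used to rank regions within a list. Read depth is unknown, so no counting interval is given, and 3 animals per group limit the precision. No label gives a batch. Positions are printed 1-based.

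Peaks on chromosomes 1 to 19 and X were merged where they touched or overlapped, which gave as many regions as bedtools 2.31.1. Ties took the average rank. The merging, ranking and distance code was tested on simulated data. Regions to name were the 20 with the largest gap, the 5 with the highest lowest EYFP rank, the 3 widest, 3 on each side of the rule, those in the densest 1 Mb window, and the chromosomes with the highest and lowest share. The opposite-direction pairs, the closest members and the other chromosomes were added after seeing values. The members and lists were chosen with earlier results of these data known. Planned gene lists and motifs needed an mm9 genome and were not analysed here. Python 3.11.15 was used, with pandas 2.3.3, numpy 2.4.6, scipy 1.17.1 and, for plots, matplotlib 3.10.9.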

Additional observations from a re-analysis of the deposited data

How the results depend on the processing

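Peak lists carry no read depth. Ranking removes a shift common to a whole library, but whether depth altered the ranks of single regions was not tested. With 3 animals per group, no call can be made for a single region. The count of EYFP-higher regions stayed within 1.5 times of 743 under 6 of 18 alternatives, from 648 to 749, and the cFos-higher count under the same 6. Raw scores gave 1788 EYFP-higher and 101 cFos-higher regions, a median width of 1081 bp and 20.5% with another such region within 100 kb. Percentiles among all peaks of a library gave 1561 and 240 regions, 17.8%, and 1391 with separated raw scores. Peaks above the pooled median score gave 420 and 463 regions, or 5.89% and 6.50% of 7126 ranked, with 1263.5 bp, 4.76% and 307. Covering at least 50% of a region gave 388 and 395 regions, or 6.37% and 6.48% of 6093 ranked, with 1041.5 bp, 5.67% and 289. A gap over 5% gave 326 and 369 regions, 1037.5 bp, 3.68% and 319. The last 3 rank fewer regions or ask for more, which lowers the counts by construction. The share within 100 kb tends to rise with the size of a set, so it is not comparable between sets of unlike size. The median width was 1258 bp with score times width, 1182.5 bp on lists of equal length and 584.5 bp with every peak set to 400 bp.

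Leaving out 1 library, which eases the rule, gave 1234 (without EYFP replicate 2) to 1650 (without cFos replicate 2) EYFP-higher regions and 1349 to 1754 cFos-higher ones, always more of the latter, with widths of 1039 to 1136 bp, shares within 100 kb of 14.5% to 18.3% and 971 to 1476 with separated raw scores. Between 735 and 743 of the 743 members were kept. This follows almost wholly from the rule, since separated ranks mostly stay separated when 1 library is left out. The share on chromosome X stayed between 2.95% and 4.89% under all 17 alternatives run for it. Score times width kept 376 of the 743 members and placed 2 in the opposite direction; no other alternative did the latter. With the replicate number as a block, which asks only that each EYFP rank exceed that of the same-numbered cFos library, 1690 regions were EYFP-higher and 1710 cFos-higher. Deviations of same-numbered libraries correlated at -0.0450, -0.0276 and 0.0373, and those of other-numbered pairs at -0.0841 to 0.105. Whether same-numbered libraries share more than a number was not tested.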

Other observations

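Chromosome Y was outside the ranking. It held 16 regions called in all 6 libraries. With these ranked along, 2 of the 16, or 12.5%, were higher in every EYFP library, against 6.32% of all regions ranked. Another 4 of the 16 were higher in every cFos library, against 7.15% of all regions ranked. Shares of so few regions are imprecise. The first EYFP-higher region lay from 581740 to 582525 on chromosome Y (mm9), with ranks of 65.2%, 62.5% and 45.9% in EYFP and 25.5%, 7.06% and 17.4% in cFos replicates 1 to 3, a gap of 20.4%. The median rank of the 16 regions was 30.7%, 9.94% and 21.0% in EYFP and 38.7%, 44.1% and 22.5% in cFos replicates 1 to 3, with EYFP replicate 1 above cFos replicate 3.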
